A study of Mus musculus with 29 samples.

Results

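The interferon response and MHC class I genes are 38 mouse genes taken as a list of names. Of the 38, 36 had a probe set annotated to that gene alone among the 45101 probe sets of the array, and each was read through its brightest probe set. The probe set of Isg15 names a second gene, Ifi44 had no annotated probe set, and neither is described further as a signal. The 35 members with a signal above the filter on weak values were tested together with 14602 genes in all; Mx2 did not pass and enters only the mean over members.

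The study measured mouse lung tumours on 29 Affymetrix 430 2.0 arrays. The single normal lung array came from a mouse with CCSP-rtTA, a transgene that expresses the tetracycline-controlled activator from a promoter of airway epithelial cells. The 8 TI-K primary tumours carried CCSP-rtTA and TRE-KrasV12, an oncogene transgene under a tetracycline-responsive promoter. In 14 primary tumours and 6 recurrences of TI-KM mice, TRE-Mad2 was present as well, which adds the mitotic checkpoint protein Mad2. All mice were on a mixed 129/Bl6 background and the tumours are named as lung adenocarcinoma or adenoma. Ages, sexes and drug schedules are not given in the sources used here, and neither is whether each array is a separate animal. TI-KM primary tumours 1 and 2 have the same number in their titles and could be from a single mouse. The p-values therefore measure the spread between these samples, which may be partly technical. The signal for Mad2l1, the gene of the added transgene, spanned 573 to 1478 in TI-K (median 871), 492 to 1271 in TI-KM primaries (median 730) and 437 to 1845 in recurrences (median 611). It did not separate the groups. Whether its probe set lies in the transgene is not known here, so the genotypes stand as labelled.

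Interferons are secreted proteins that warn cells of infection or of misplaced nucleic acid. Type I interferons act through JAK kinases on a complex that holds STAT2 and IRF9 and binds the interferon-stimulated response element (ISRE), whereas interferon gamma acts at gamma-activated sites (GAS). The induced genes encode antiviral proteins and much of the MHC class I pathway, in which peptides cut by the immunoproteasome are pumped by TAP onto class I chains and shown to T cells. In lung, both the epithelium and resident macrophages respond in this way.

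Promoter sequence is shown for 8 members because the letters around the transcription start are measured apart from the signals. RefSeq promoter windows (GRCm38.p6, 250 bases before to 50 after a start) were matched by symbol for 31 members, in 36 windows. The ISRE core, searched on both strands as GAAA, any 2 bases and GAAA, was in 15 of the 36 windows (41.7%), against 3.44% of all 32851 windows. The GAS letters TTCNNNGAA, which read the same on both strands, were in 8 (22.2%) against 8.3% of all windows. Each stretch below reads 5′ to 3′ on the strand of the gene, and the capitals mark the ISRE core, which read from the opposite strand is TTTC, any 2 bases and TTTC. Ifit1 and Ifit3, which encode proteins that bind viral RNA, have a pair of separate cores each at chr19:34640755-34640854 and chr19:34583343-34583442 (plus strand). The cores of Oas1a at chr5:120907526-120907625 and Irgm1 at chr11:48871421-48871520, both on the minus strand, overlap by the shared GAAA. Rsad2 (chr12:26456503-26456602, minus strand), Gbp2 (chr3:142620563-142620662, plus strand), Igtp (chr11:58199456-58199555, plus strand) and B2m (chr2:122147518-122147617, plus strand) have a single core.
Ifit1: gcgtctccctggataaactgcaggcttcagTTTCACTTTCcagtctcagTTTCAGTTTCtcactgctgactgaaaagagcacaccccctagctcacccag
Ifit3: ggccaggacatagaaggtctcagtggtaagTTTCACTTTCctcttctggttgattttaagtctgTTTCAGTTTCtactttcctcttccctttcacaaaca
Oas1a: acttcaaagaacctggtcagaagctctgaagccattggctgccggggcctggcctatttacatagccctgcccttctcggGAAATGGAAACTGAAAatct
Irgm1: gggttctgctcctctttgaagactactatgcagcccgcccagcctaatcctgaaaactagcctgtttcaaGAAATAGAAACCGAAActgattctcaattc
Rsad2: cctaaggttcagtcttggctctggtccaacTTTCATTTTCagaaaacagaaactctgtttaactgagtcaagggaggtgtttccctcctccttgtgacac
Gbp2: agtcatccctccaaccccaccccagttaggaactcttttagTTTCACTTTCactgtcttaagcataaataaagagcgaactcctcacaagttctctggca
Igtp: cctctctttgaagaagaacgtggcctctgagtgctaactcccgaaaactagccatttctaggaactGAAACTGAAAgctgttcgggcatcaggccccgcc
B2m: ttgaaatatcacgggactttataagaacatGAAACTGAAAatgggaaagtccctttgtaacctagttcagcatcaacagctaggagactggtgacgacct
The core was in all 4 of the 4 matched interferon-induced GTPase genes, in both matched sensors and in 3 of 4 matched genes of the IFIT and ISG15 system. Among class I genes it was in B2m, in 1 of 3 chains, and in 0 of 2 peptide transport and loading genes and 0 of 3 immunoproteasome genes. A match describes letters, not a bound site, and a window without one says nothing of the factor.

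Averaged over the 36 members as log2(signal + 20), the module did not separate the genotypes. The normal lung stood at 9.54. TI-K primaries averaged 9.44 ± 0.45 (SD, n = 8), with a range from 8.94 to 10.20. TI-KM primaries averaged 9.64 ± 0.27 (SD, n = 14), from 9.12 to 10.17, and recurrences 9.60 ± 0.61 (SD, n = 6), from 8.83 to 10.54. The normal lung lay inside the range of every tumour group, and each pair of tumour groups overlapped over most of its range. The TI-KM minus TI-K difference was 0.19 and the recurrence minus TI-KM primary difference was -0.04, both smaller than the SD within each group.

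**Figure D1:**
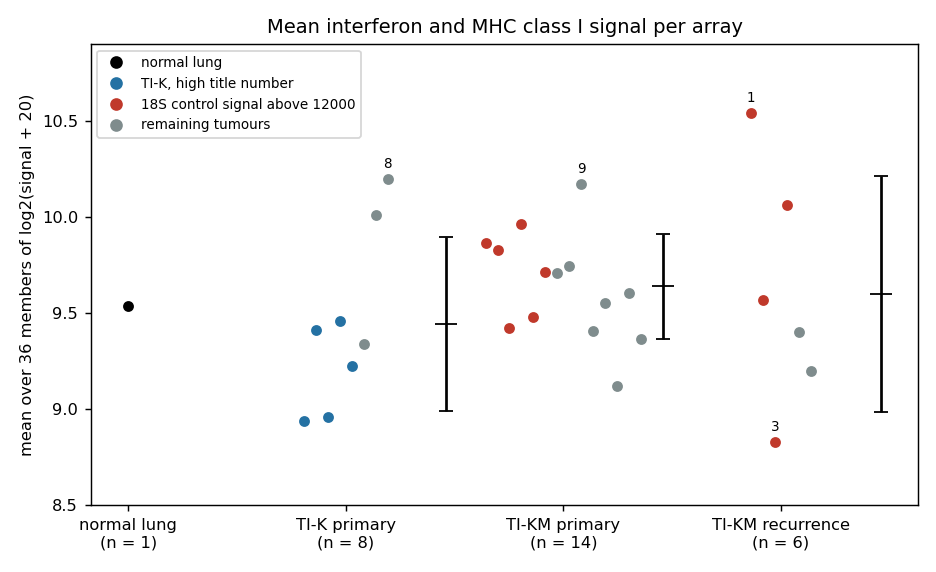
Mean of log2(signal + 20) over the 36 members for each of the 29 arrays, by group, with bars at group means and SD; colours mark the 3 technical sets of tumour arrays. The highest and the lowest of the 28 tumours, at 10.54 and 8.83, are both recurrences.

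The arrays fall into technical sets that cross the groups and bear on every result here. The 2% trimmed mean was 500.003 on each array, so all arrays had been scaled alike. TI-KM primaries 1 to 6 and recurrences 1 to 4 had an 18S control signal of 12665 to 24001, against 5939 to 10857 in 13 other tumours and 7616 to 8523 in TI-K primaries 1 to 5, whose titles carry high numbers. Median signals were 122 to 170 in the high 18S arrays, 103 to 111 in the high-number TI-K arrays and 69.9 to 102 in the 13 remaining tumours. The normal lung array had an 18S signal of 12569, above the cut of 12000 for the high 18S arrays, and a median signal of 111. It was kept outside the sets. The labels do not say what these sets are. Only the 13 remaining arrays (TI-K 6 to 8, TI-KM primaries 7 to 14 and recurrences 5 and 6) compare the genotypes within one set. As the samples are bulk tissue, fewer cells that express a gene and less of its RNA per cell cannot be told apart.

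TI-KM was set against TI-K to see how tumours differ when the Mad2 transgene is also present. No member passed the test: limma with Benjamini-Hochberg adjustment over all genes called 0 of 35 at an adjusted p below 0.05, against 8.01% of all genes, and 5 had an unadjusted p below 0.05. The log2 difference was above 0 for 30 members and below 0 for 5, with a median of 0.23, beside 0.08 over all genes. In the remaining arrays alone the sign was turned for most: 6 were above 0 and 29 below, with a median of -0.18 beside -0.00416 over all genes. There limma called 0 members, 0 had an unadjusted p below 0.05, and 0.00685% of all genes were called.

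**Figure D2:**
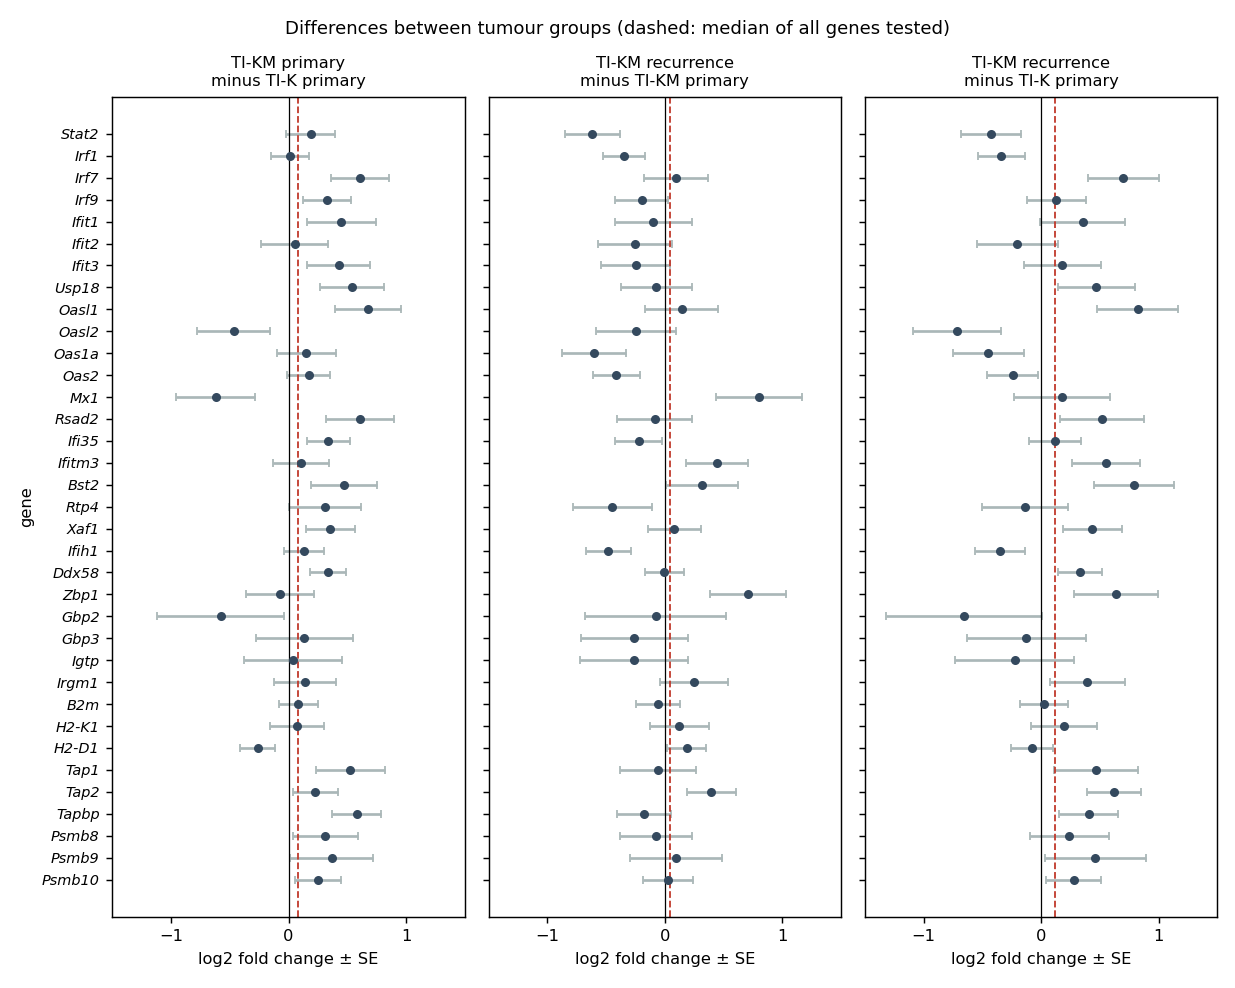
Log2 difference with its standard error for each of the 35 tested members, by role, in the comparisons between tumour groups. Limma called 0 of the 35 in each. Tapbp is at 0.58 for TI-KM against TI-K primaries and Stat2, at its brighter probe set, at -0.62 for recurrences against TI-KM primaries.

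Of the transcription factors, Irf7, which drives the amplifying wave of type I interferon production, read 94.6 to 246 in TI-K (median 149), 128 to 456 in TI-KM primaries (median 252) and 145 to 723 in recurrences (median 247); the normal lung read 209. The TI-K values lay towards the low end of the TI-KM values, and the groups overlapped. Irf7 was 0.61 higher on the log2 scale in TI-KM than TI-K primaries (SE 0.25, limma adjusted p = 0.109). In the remaining arrays this difference was -0.16. Stat2, a subunit of the type I complex, read 58.2 to 223 in TI-KM primaries (median 119) and 48.3 to 120 in recurrences (median 78.7), a difference of -0.62 (SE 0.23, adjusted p = 0.272). At the other, weaker Stat2 probe set this difference had the opposite sign, 0.25 (limma adjusted p over probe sets 0.708). Irf1, an early target of interferon gamma, kept the narrowest spread of the 4, from 1232 to 3671 across all 28 tumours. Irf9, the DNA-binding member of the type I complex, differed by 0.33 between TI-KM and TI-K (SE 0.21).

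In the IFIT and ISG15 system, all 4 measured genes had a TI-KM minus TI-K difference above 0 and a recurrence minus TI-KM difference below 0, and none passed the test. Usp18, the protease that removes ISG15 and restrains the type I receptor, read 178 to 602 in TI-K (median 263) and 213 to 876 in TI-KM primaries (median 438). Its difference of 0.54 (SE 0.27) had a limma adjusted p of 0.189. Ifit1 read 83.7 to 395 in TI-K, 101 to 610 in TI-KM primaries and 104 to 652 in recurrences. The tumour groups overlapped for every gene of this system.

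The OAS family makes or imitates the enzymes that switch on the antiviral nuclease RNase L. Oasl1, a relative without that enzyme activity, read 25.1 to 143 in TI-K (median 111), 79.7 to 332 in TI-KM primaries (median 144) and 105 to 404 in recurrences (median 163). It was 0.68 higher in TI-KM than TI-K primaries (SE 0.28, limma adjusted p = 0.115) and 0.82 higher in recurrences than TI-K (SE 0.34, adjusted p = 0.086). Within TI-KM primaries its 2 technical sets did not overlap, at 243 to 332 in high 18S arrays and 79.7 to 147 in the remaining ones. Its relative Oasl2 had a difference of the other sign in TI-KM against TI-K primaries, -0.47 (SE 0.31). Oas1a and Oas2, both of the enzyme-encoding kind, stood at -0.60 and -0.41 in recurrences against TI-KM primaries, with unadjusted p below 0.05 and adjusted p of 0.362 and 0.395.

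Rsad2, which encodes the antiviral radical-SAM enzyme viperin, was the member that set the normal lung apart. Its signal was 3693 in the normal lung, 79.7 to 309 in TI-K primaries (median 239), 136 to 1159 in TI-KM primaries (median 316) and 134 to 612 in recurrences (median 290). No tumour came near the normal array. Rsad2 fell by 4.02 on the log2 scale in TI-K (SE 0.70, limma adjusted p = 1.54e-04), fell by 3.41 in TI-KM primaries (SE 0.68, adjusted p = 6.91e-04) and fell by 3.50 in recurrences (SE 0.71, adjusted p = 0.00109). Its 2 weaker probe sets showed smaller differences that were not called. One stood at -1.55 in TI-K, -0.86 in TI-KM primaries and -0.23 in recurrences against normal lung (adjusted p over probe sets 0.198, 0.528 and 0.875), and the other at -2.52, -2.29 and -2.38 (adjusted p 0.061, 0.0788 and 0.0817). The 3 comparisons share the single normal array, whose own spread is not measured, and in them 13.5%, 14.9% and 12.5% of all genes were called. The normal array also stood apart in cell markers. Its summed adipocyte markers were 49808, against 1239 to 10086 in tumours, its endothelial markers 10545, against 1045 to 4369, and its alveolar type II markers 39467, against 50950 to 109576. Of the alveolar type II list, Sftpc read 28262, inside the tumour range of 10460 to 31058. The club cell sum was 74615, against 5229 to 69238, with Scgb1a1 and Cyp2f2 inside their tumour ranges. The neutrophil sum was 5628, against 260 to 4339, with S100a8 alone of its 3 markers above every tumour. The macrophage sum was 23686, against 24665 to 66368, with Cd68, Lyz2 and Marco below every tumour and the other markers inside their tumour ranges. The leukocyte, T and NK cell, B cell, plasmacytoid dendritic cell and fibroblast sums lay inside the tumour range. The part of these cells in the Rsad2 difference was not tested.

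The other antiviral effectors showed smaller differences. Mx1, a GTPase that blocks incoming viral particles, read 37.8 in the normal lung, 85.2 to 320 in TI-K (median 161), 41.1 to 275 in TI-KM primaries (median 89.8) and 54.0 to 583 in recurrences (median 196). Recurrences 2 and 5 had the highest values, 583 and 495. Mx1 was 0.80 higher in recurrences than TI-KM primaries (SE 0.37, limma adjusted p = 0.372) and stood at -0.62 in TI-KM against TI-K primaries (SE 0.33, adjusted p = 0.223). Bst2, which tethers budding virus to the cell, read 80.0 in the normal lung, 88.1 to 361 in TI-K, 105 to 521 in TI-KM primaries and 227 to 887 in recurrences. It was 0.79 higher in recurrences than TI-K (SE 0.34, adjusted p = 0.0941), and this difference was -0.23 in the remaining arrays. Ifitm3, which hinders viral entry at endosomes, spanned 1743 to 9633 over the tumours, and Ifi35 and Rtp4 overlapped across all groups. Xaf1 overlapped across the tumour groups, while its normal lung value of 403 was just above all 8 TI-K tumours (at most 401). For 4 of the 35 members, all 28 tumours lay on one side of the normal lung (Mx1, Bst2 and Ifih1 above, Rsad2 below), which held for 25% of all genes.

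**Figure D3:**
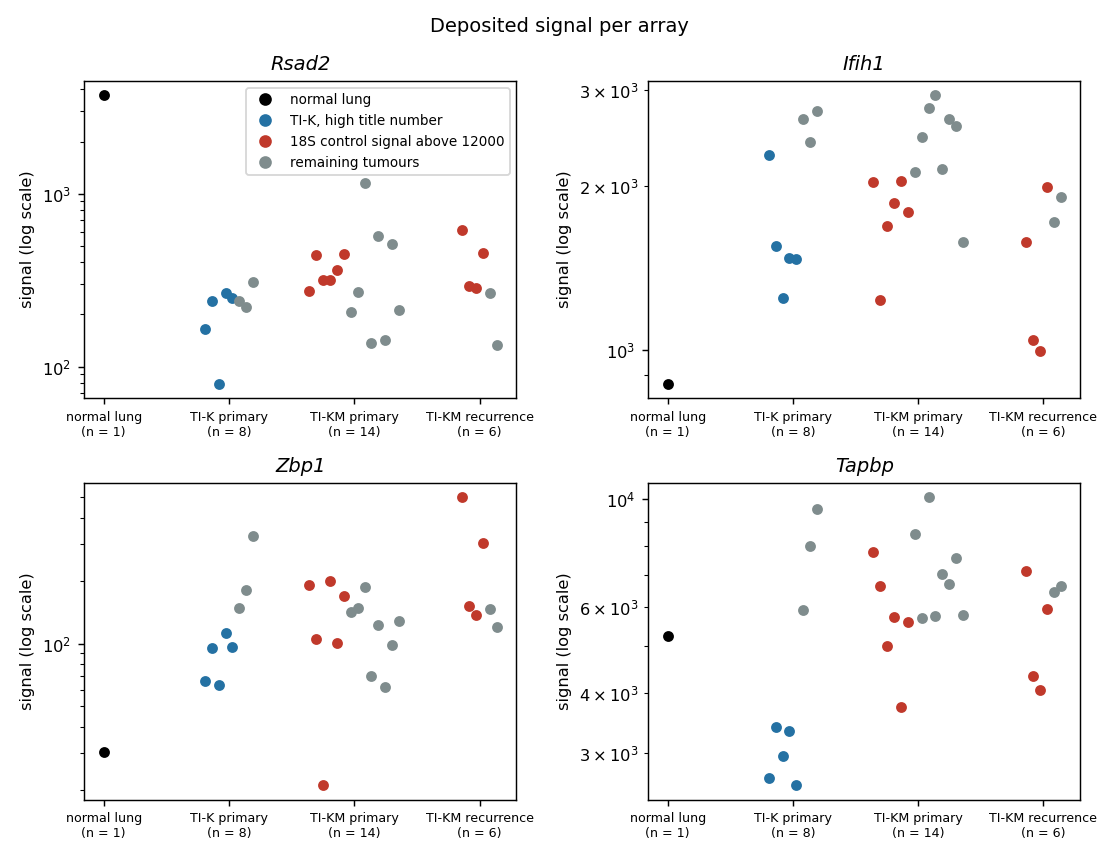
Signal of 4 members in each array by group, on a log axis. Rsad2 reads 3693 in the normal lung and at most 1159 in tumours, and Gbp2 spans 156 to 8335 over the tumours with no order by group.

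Among the sensors of foreign nucleic acid, Ifih1, the receptor MDA5 for long double-stranded RNA, read 867 in the normal lung, 1246 to 2751 in TI-K, 1234 to 2936 in TI-KM primaries and 996 to 1996 in recurrences. Every tumour was above the normal lung. Ifih1 rose in TI-KM primaries against normal lung, by 1.24 (SE 0.40, limma adjusted p = 0.0339), while in TI-K the difference was 1.11 with an adjusted p of 0.0709. The TI-KM call was lost with arrays scaled to a common median and with only the high 18S arrays. Zbp1, a sensor of Z-form nucleic acid that can start cell death, read 30.2 in the normal lung, 63.0 to 326 in TI-K, 21.0 to 199 in TI-KM primaries and 120 to 502 in recurrences (median 149). It rose in recurrences against normal lung by 2.11 (SE 0.71, adjusted p = 0.0473). That call was lost in 14 of 28 refits that each left out 1 tumour: TI-K 2, 4, 5, 6 or 7, TI-KM primary 2, 5, 7, 8, 11, 13 or 14, and recurrence 1 or 4. It was also lost in 7 of 13 other settings, quantile normalization and only the high 18S arrays among them. Ddx58, the RIG-I receptor for short RNA ends, was 0.33 higher in TI-KM than TI-K primaries (SE 0.15, adjusted p = 0.152) and had one of the smallest spans of any member, 717 to 1734 in the 28 tumours.

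The interferon-induced GTPases attack the membranes of intracellular pathogens, and 3 of the 4 varied widely from tumour to tumour. Gbp2 read 606 to 8335 in TI-K (median 1269), 233 to 6451 in TI-KM primaries (median 1013) and 156 to 5224 in recurrences (median 1148); the normal lung read 3229. A few tumours of each group were high: TI-K 8 at 8335, TI-KM primary 9 at 6451, TI-K 7 at 6156 and recurrence 1 at 5224. Igtp, an immunity-related GTPase, was highest in those same 4 tumours, at 7613, 5776, 4367 and 3524 in that order. The ratio of the highest to the lowest tumour was 53.6 for Gbp2, 24.9 for Gbp3 and 20.5 for Igtp. It was 5.60 for the other GTPase, Irgm1, 23.9 for Zbp1, 21.0 for Psmb9 and 14.2 for Mx1, against 3.13 for B2m, 2.95 for Ifih1 and 2.42 for Ddx58. The SD within groups on the log2 scale was 1.35 for Gbp2, 1.02 for Gbp3 and 1.02 for Igtp, at percentiles 99.2, 96.8 and 96.9 of all genes tested. Irgm1, at 0.63, was at percentile 73.4, below Psmb9 (0.86) and Mx1 (0.80). Differences between groups were small beside that spread; Gbp2 stood at -0.58 in TI-KM against TI-K primaries (SE 0.54, limma adjusted p = 0.505). Across members, the median SD within groups was 0.63, beside 0.47 over all genes, and 25 of 35 were above that all-gene median.

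**Figure D4:**
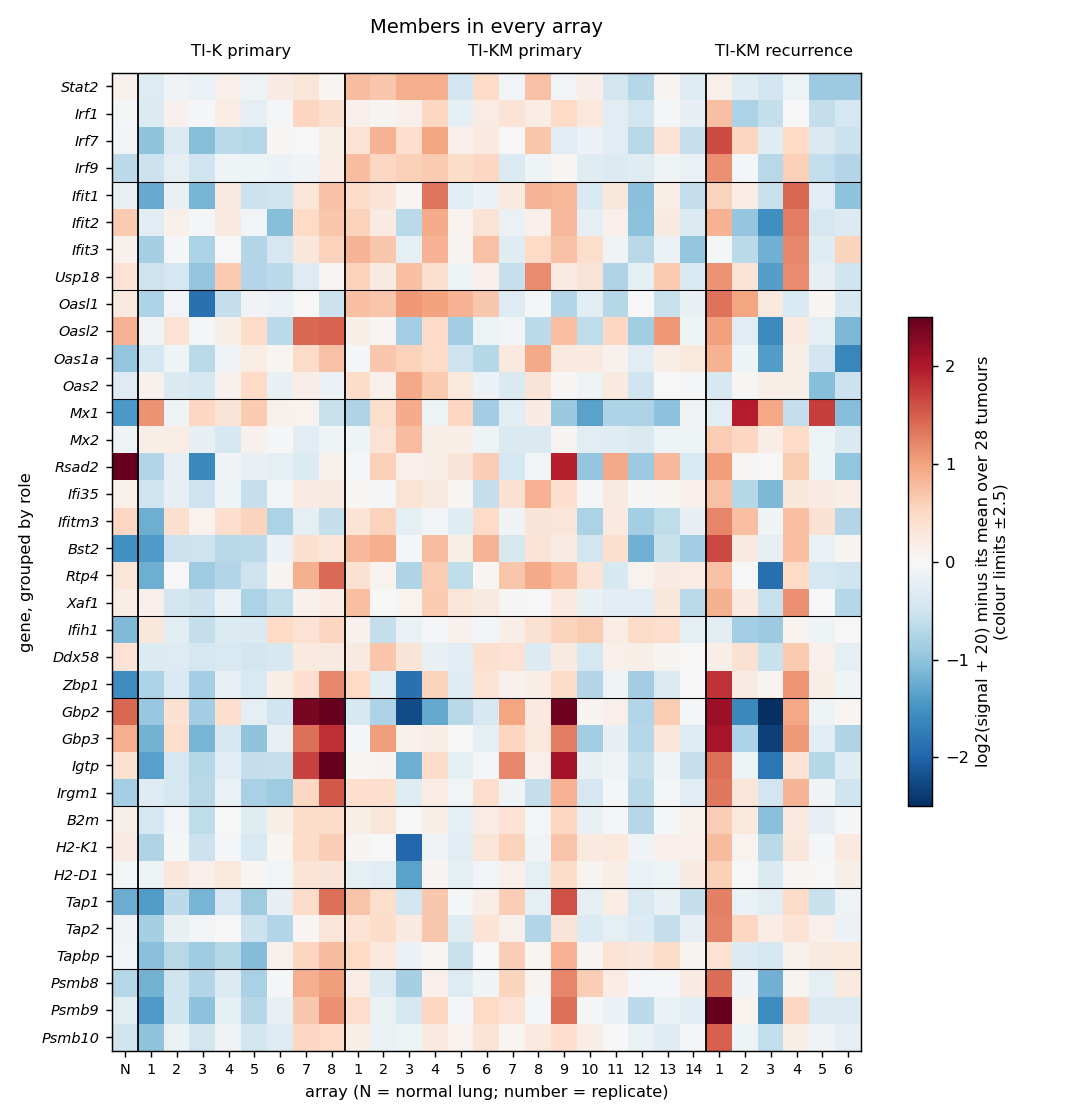
Log2(signal + 20) of each member in each array as the difference from that member's mean over the 28 tumours, members by role and arrays by group and technical set. Recurrence 1 is high and recurrence 3 low across most roles, and Gbp2, Gbp3 and Igtp hold strong contrasts.

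The class I chains differed little. B2m, the invariant light chain, read 20210 in the normal lung, 11751 to 25325 in TI-K (median 17938), 11170 to 26347 in TI-KM primaries (median 18965) and 8927 to 27968 in recurrences (median 19827). The 3 medians lay close together inside wide and overlapping ranges. The heavy chain H2-K1 read 7800 to 20064 in TI-K, 3368 to 21468 in TI-KM primaries and 8268 to 22601 in recurrences. H2-D1, the other classical heavy chain on the list, stood at -0.26 in TI-KM against TI-K primaries (SE 0.15, limma adjusted p = 0.248). TI-KM primary 3 had the lowest TI-KM value of both heavy chains, 3368 for H2-K1 and 5765 for H2-D1. That array also had the highest 3′ to 5′ signal ratio of the control transcripts, 4.01 on the log2 scale, and the highest 18S signal; their part in its low values was not tested. The heavy chains are polymorphic and closely related, and their probe sets disagreed. For H2-D1, TI-KM minus TI-K was -1.11 at one further probe set (median signal 698, limma adjusted p over probe sets 0.0114). It was 1.31 and 1.19 at others with weak median signals of 39.0 and 107 (adjusted p 0.0095 and 0.0223). Bright further probe sets stood at -0.31 (median signal 12526) and -0.16 (6698), neither called. The direction of H2-D1 thus depends on the probe set read, and its called rises were at weak probe sets. For H2-K1 it was 1.29 at a weaker probe set (adjusted p over probe sets 0.0353), beside 0.34 and -0.25 at others that were not called.

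In peptide transport and loading, Tapbp encodes tapasin, which holds class I chains to the transporter. Tapbp came nearest to a call in TI-KM against TI-K primaries. It read 2579 to 9560 in TI-K (median 3375), 3746 to 10102 in TI-KM primaries (median 6205) and 4050 to 7126 in recurrences (median 6190). In all, 5 of the 8 TI-K values were below every TI-KM value, and the others lay among them. The TI-KM minus TI-K difference was 0.58 (SE 0.21, limma adjusted p = 0.0707), and it was -0.13 in the remaining arrays and -0.01 at the other, weaker Tapbp probe set. Without TI-K 6, 7 or 8, Tapbp was called. Tap2, a chain of the peptide pump, read 340 to 778 in TI-K (median 572) and 562 to 1504 in recurrences (median 751), a difference of 0.62 (SE 0.23, adjusted p = 0.0551) that was 0.11 in the remaining arrays. Its partner Tap1 read 288 to 2102 in TI-K (median 541) and 521 to 2432 in TI-KM primaries (median 838), a difference of 0.53 (SE 0.29, adjusted p = 0.243).

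The immunoproteasome subunits Psmb8, Psmb9 and Psmb10, which replace the standard cutting subunits, had TI-KM minus TI-K differences of 0.31, 0.37 and 0.25, none called. Against the single normal lung, a weaker Psmb8 probe set stood at 3.07 in TI-KM primaries and 2.88 in recurrences (limma adjusted p over probe sets 0.0167 and 0.0367). It stood at 2.26 in TI-K (adjusted p 0.111). The brighter Psmb8 probe set stood at 0.81, 0.73 and 0.50 in these comparisons and was not called. Psmb9 spanned 289 to 6048 over the tumours, a ratio of 21.0, with recurrences at both ends. Psmb10 was within 541 to 1601 in all tumours but recurrence 1, where it read 3137.

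Recurrences against TI-KM primaries ask what differs in tumours that came back. The log2 3′ to 5′ ratio of control transcripts, a sign of RNA quality, was 1.32 ± 0.45 (SD, n = 6) in recurrences, 2.16 ± 0.67 (SD, n = 14) in TI-KM primaries and 2.16 ± 0.41 (SD, n = 8) in TI-K. Its part in the recurrence results was not tested beyond the fit with it as a covariate. Limma called 0 of 35 members, with 0.26% of all genes called, and 6 members had an unadjusted p below 0.05: Stat2, Oas1a, Oas2 and Ifih1 lower, Mx1 and Zbp1 higher. The differences were above 0 for 13 and below 0 for 22, with a median of -0.08 beside 0.04 over all genes. Within high 18S arrays limma called 0 members (3 with an unadjusted p below 0.05, 1.58% of all genes called), and within the remaining arrays 0 (3 with an unadjusted p below 0.05, 0.0479% of all genes called). Recurrences against TI-K primaries also gave 0 of 35, against 18.9% of all genes, and 4 members had an unadjusted p below 0.05: Irf7, Oasl1, Bst2 and Tap2, all higher. Here 23 members were above 0 and 12 below, with a median of 0.19 beside 0.11. In this comparison limma over all probe sets called some weaker probe sets of members. H2-D1 stood at 1.96, 1.92 and 1.66 (adjusted p 0.00585, 8.42e-04 and 0.0053). H2-K1 stood at 1.68 (adjusted p 0.0158) and Rsad2 at 1.32 (adjusted p 0.00832). The other probe sets of these genes were not called, with H2-D1 at -0.80, H2-K1 at -0.02 and Rsad2 at 0.14 among them. Leaving out recurrence 6 gave 4 calls, of Ifitm3, Irf7, Oasl1 and Tap2, leaving out recurrence 1 gave 1, of Irf1 lower, and leaving out TI-K 8, TI-KM primary 4 or 8, or recurrence 5 gave 1 each. The module mean difference between recurrences and TI-K primaries was 0.16; it was -0.03 without recurrence 1, 0.31 without recurrence 3 and -0.55 in the remaining arrays.

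The recurrences held the extremes of the module. Recurrence 1 was the highest of the 28 tumours for 15 of the 36 members (41.7%), while it was highest for 14.8% of all genes. With arrays scaled to a common median the count was 9, and the share of all genes at that scaling is not given here. Recurrence 3 was the lowest for 14 of the 36 (38.9%), beside 8.36% of all genes. Without recurrence 1 the recurrence minus TI-KM primary module difference was -0.23, and without recurrence 3 it was 0.12. The immunoproteasome mean was 12.06 in recurrence 1 and 9.06 in recurrence 3, and the GTPase mean 11.67 and 8.09. Of the 5 general leukocyte markers, 4 were highest of the 28 tumours in recurrence 1. The exception was Laptm5, at 15695 there and 20053 in TI-KM primary 3. The sum over 5 general leukocyte markers was 66399 in recurrence 1, 5281 in recurrence 3 and 10494 to 34510 in the other tumours. B cell markers summed to 20056 in recurrence 1 and to 729 to 2263 in the other tumours, and all 3 measured B cell markers were highest there, Ms4a1 at 10963. T and NK cell markers summed to 5378 in recurrence 1 and to 211 to 1590 elsewhere, with 4 of 8 highest there. Macrophage markers summed to 66368 in recurrence 1, with 4 of 8 highest there, and to 24665 in recurrence 3. Plasmacytoid dendritic cell markers were highest in recurrence 1, at 373 against at most 187, and alveolar type II markers lowest, at 50950 against at least 64954. Of the alveolar type II list, Sftpa1, Napsa and Abca3 were lowest there. Sftpc (20649) and Sftpb (4320) lay inside the range of the other tumours. The club cell sum of recurrence 1, 69238, was the highest of the 28 tumours, with 2 of 3 markers highest there. In recurrence 3 all 5 leukocyte markers were at their lowest of the 28 tumours. The fibroblast sum of recurrence 3 was also lowest, at 3488, with 1 of 4 fibroblast markers (Col1a2) lowest there. Its T and NK cell sum of 671 and B cell sum of 1126 were inside the range of the other tumours, and its neutrophil sum of 3835 was exceeded only by recurrence 2. The part of these cells in the members' signals was not tested.

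**Figure D5:**
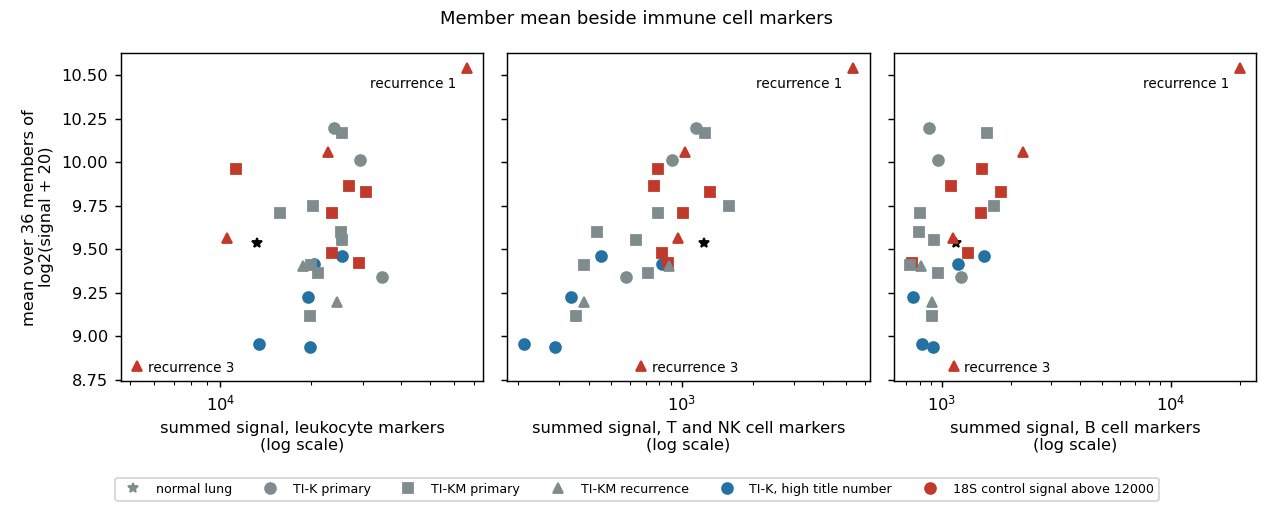
Summed signal of leukocyte, macrophage, T and NK cell and B cell markers in each array beside its mean over the members. Recurrence 1 has the highest sum of each list, with B cell markers at 20056 against at most 2263 in the other tumours.

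The next highest tumours were primaries. TI-K 8, second by module mean at 10.20, was highest of the 28 tumours for 5 members, while it was highest for 1% of all genes. Its leukocyte sum was 23977 and its T and NK cell sum 1149. TI-KM primary 9, next at 10.17, was highest for 3 members, beside 0.918% of all genes, with a leukocyte sum of 25389 and a T and NK cell sum of 1249. Both leukocyte sums lay inside the range of the other primaries. In these arrays the GTPase means were 12.10 and 11.60, and the class I chain means 14.36 and 14.46.

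Within TI-K primaries, which carry one genotype, the 5 high-number arrays were below the 3 remaining ones for 32 of 35 members. Limma called 5 lower and 0 higher, where 7.74% of all genes were called (4.6% of all genes lower), and 16 members had an unadjusted p below 0.05. Tapbp fell most clearly, from 5919 to 9560 in the remaining arrays to 2579 to 3407 (log2 difference -1.36, SE 0.22, adjusted p = 5.94e-04). Psmb8 fell from 1475 to 3154 to 658 to 1206 (-1.34, adjusted p = 0.0284), and Tap1 (-1.46, adjusted p = 0.0299), Rtp4 (-1.46, adjusted p = 0.0373) and Ifih1 (-0.72, adjusted p = 0.0447) fell with them. For 12 of 35 members the sets did not overlap, which held for 24.8% of all genes. The median difference was -0.64, beside -0.02 over all genes. Leaving out 1 array at a time left 1 to 6 members called lower, with 1 without TI-K 3, 7 or 8, 2 without TI-K 1 or 5 and 3 without TI-K 4. Leukocyte sums were 13463 to 25534 in the high-number arrays and 23977 to 34510 in the remaining ones, and T and NK cell sums 211 to 822 and 578 to 1149. Fibroblast sums (11483 to 18320 against 6538 to 9005) and endothelial sums (1719 to 3959 against 1441 to 1603) were higher in the high-number arrays, without overlap. The part of these cells was not tested. All TI-K arrays that lay below every TI-KM primary for Tapbp were of the high-number set.

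Within TI-KM primaries, limma called 6 members higher in the 6 high 18S arrays than in the 8 remaining ones and 2 lower, where 42.6% of all genes were called, 30% of all genes higher and 12.6% lower. Irf9 (0.78, adjusted p = 9.17e-04) and Oasl1 (1.19, adjusted p = 4.26e-04) rose without overlap, as 14.3% of all genes did not overlap, and Stat2 (0.63), Irf7 (0.61), Bst2 (0.90) and Tap2 (0.54) rose too. Ifih1 fell by 0.43 and H2-D1 by 0.41. Scaling changed this result: with a common median the median over all genes moved from 0.21 to -0.44, 1 member (Oasl1) was higher and 13 were lower, and with quantile normalization only Irf9 and Oasl1 were called. The shares of all genes called at these scalings are not given here, so the counts are not a result about the members. Without TI-KM primary 2, 3, 9 or 10, limma called 5. In recurrences limma called Irf9 alone, higher by 0.92 in high 18S arrays (adjusted p = 0.0249), where 18.8% of all genes were called. Tapbp stood at -0.32 in high 18S against remaining TI-KM primaries (3746 to 7806 against 5707 to 10102, adjusted p = 0.112). No TI-K tumour is in the high 18S set.

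Genes around the members were read from 4 lists. Over the 4 lists together limma called 4 of 64 tested genes (6.25%) in TI-KM against TI-K primaries, beside 8.01% of all genes, and 13 of 64 (20.3%) in recurrences against TI-K, beside 18.9%. Both shares are near those of all genes, so the genes named next are single values and not a result about the lists. Of the 13 tested interferon ligands, receptors and JAK-STAT genes, 1 rose and 0 fell in TI-KM against TI-K primaries, and 3 rose and 1 fell in recurrences against TI-K. Of the 13 tested genes of cytosolic nucleic acid sensing, 1 rose and 1 fell, then 1 rose and 2 fell. Of 27 further interferon-induced genes, 0 rose and 1 fell, then 1 rose and 2 fell. Of 11 further class I pathway genes, 0 rose and 0 fell (2 with an unadjusted p below 0.05), then 1 rose and 2 fell. Limma called no gene of the 4 lists in recurrences against TI-KM primaries, with 1, 1, 2 and 2 genes at an unadjusted p below 0.05 in the lists as ordered here.

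Ifnb1, the gene for interferon beta, had weak signals of 14.2 to 116 in TI-K (median 48.6), 43.2 to 130 in TI-KM primaries (median 90.8) and 76.3 to 185 in recurrences (median 109), and 28.8 in the normal lung. It rose in recurrences against TI-K by 1.03 (SE 0.28, limma adjusted p = 0.0130), and the difference was 0.01 in the remaining arrays. Ifngr2, a chain of the interferon gamma receptor, rose in TI-KM primaries by 0.73 (adjusted p = 0.0379) and in recurrences by 0.99 (adjusted p = 0.0121), both against TI-K. Dhx58, the RIG-I relative LGP2, rose in TI-KM primaries by 0.93 (adjusted p = 0.0408), and this difference was -0.20 in the remaining arrays. Samhd1, which removes the building blocks of DNA, fell by 0.71 (adjusted p = 0.0174), and Uba7, the activating enzyme for ISG15, by 0.65 (adjusted p = 0.0371).

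In recurrences against TI-K, Jak2, a kinase of the interferon gamma receptor, fell by 0.65 (SE 0.15, limma adjusted p = 0.00428), from 2046 to 3584 (median 2864) to 1503 to 2137 (median 1746). Tbk1, the kinase that activates IRF3, fell by 0.67 (SE 0.15, adjusted p = 0.00476), and Uba7 by 0.86 (adjusted p = 0.0140). Nlrc5, the transactivator of class I genes, read 593 in the normal lung, 136 to 611 in TI-K (median 347), 85.5 to 369 in TI-KM primaries (median 225) and 54.8 to 430 in recurrences (median 101). It fell by 1.20 in recurrences against TI-K (SE 0.37, adjusted p = 0.0257). Cgas and Sting1, the cytosolic DNA sensor and its adaptor, differed by -0.26 and -0.36 in that comparison and were not called, and Ifng did not pass the filter. In the remaining arrays, 3 of the 4 genes called in TI-KM against TI-K and 11 of the 13 called in recurrences against TI-K kept their direction, and limma called none of them there. In recurrences against TI-K the remaining arrays gave -2.15 for Nlrc5, -0.57 for Jak2, -0.59 for Uba7, -0.30 for Tbk1 and 0.35 for Ifngr2. In TI-KM against TI-K they gave 0.47 for Ifngr2 and -0.46 for both Samhd1 and Uba7.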

How the data were processed

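RNA of mouse lung tumours and 1 normal lung was labelled in 2 cycles and hybridised to 1-colour arrays. The deposited values are intensity signals on a linear scale that the authors made with MAS5 (version not given in the sources used here), per the submitters' processing notes. Each array's 2% trimmed mean was 500.003. Probe sets were named from the annotation of the platform: 34945 of 45101 had 1 gene, 932 several and 9160 none, beside 64 control probe sets. Log2(signal + 20) was computed, a scale that understates changes of weak genes, and per gene the probe set with the highest mean was kept. A gene was tested if it was above the 40th percentile of its array in at least 6 arrays. All 29 arrays were fitted with their 4 groups in limma 3.58.1 (R 4.3.3), with lmFit and eBayes with a variance trend, Benjamini-Hochberg adjustment and a threshold of 0.05. The spread of the single normal array was borrowed from the tumours. Array number limits the precision.

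Any member could be named; of the pathway lists, up to 5 called genes with the smallest p in each comparison between tumour groups, and Ifnb1, Ifng, Cgas, Sting1 and Nlrc5 whatever their values. Members and lists were chosen with earlier results of these data known. Technical sets were drawn from the 18S control signal (above 12000) and title numbers (above 6000). Alternatives were other scalings, offsets, filters and probe sets, the sets as a block or alone, a 3′ to 5′ covariate, and leaving out arrays. The fit was tested on simulated data with known changes, with independent noise and no technical sets. Of 100 genes changed 2-fold, it recovered 50 to 67 between tumour groups and 3 to 5 against normal lung. Of 100 changed 4-fold, it recovered 93 to 98 and 50 to 52. A member that was not called may therefore still differ. Figures were drawn with matplotlib 3.10.9.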

Additional observations from a re-analysis of the deposited data

Results flagged for a closer look

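In 2 of 74 sets of values, 1 array lay far from the others by Dixon's criterion, and chance alone marks about 1 in 20. Each set was a member or the module mean in a tumour group of at most 10 arrays. Oasl1 in TI-K primary 3 was lowest at 25.1, and the next TI-K value was 76.8. Psmb10 in recurrence 1 was highest at 3137, and the next recurrence read 1228.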

How the results depend on the processing

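No paired analysis was possible because the replicate numbers follow only the order of deposition. Only 1 normal lung was measured and only 3 TI-K arrays are in the remaining set, which limits precision, and weak signals lie near the background.

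For TI-KM against TI-K primaries, leaving out probe sets that can match several transcripts gave 1 call (H2-D1 lower), and leaving out 1 array gave 0 to 1 calls and a module difference of 0.12 to 0.30. With the technical sets as a block the module difference was -0.30, and Ddx58 stood at -0.00651, Irf7 at -0.21, Oasl1 at -0.058 and Tapbp at -0.13. In the remaining arrays the module difference was -0.27, and these genes stood at -0.00357, -0.16, -0.11 and -0.13.

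For recurrences against TI-KM primaries, the block gave 1 call (Stat2 at its brighter probe set, -0.77), and leaving out 1 array gave 0 to 0 calls and a module difference of -0.23 to 0.12. Without the block, the weaker Stat2 probe set stood at 0.25. For recurrences against TI-K primaries, quantile normalization and the mean over probe sets gave 1 call each (Tap2), and leaving out 1 array gave 0 to 4 calls and -0.03 to 0.31. The block gave a module difference of -0.39, with Bst2 at -0.35, Irf7 at -0.29 and Oasl1 at -0.17; the remaining arrays gave -0.55, with Bst2 at -0.23 and Irf7 at -0.50.

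Against normal lung, calls in TI-K numbered 5 in the remaining arrays, 2 with only both groups fitted and 1 to 2 when 1 array was left out (2 without TI-K 3), with module differences of -0.20 to -0.02. The normal array had a higher 18S signal (12569) than every remaining array (at most 10857). Its comparison with the remaining arrays therefore does not stay within a technical set. The shares of all genes called at the settings of this paragraph are not given here. Calls in TI-KM primaries numbered 1 with a common median, 4 in the remaining arrays and 2 to 2 on leaving out arrays (0.06 to 0.14). With the mean over all probe sets of a gene they numbered 3 (Ifih1, Psmb8 and Rsad2). Calls in recurrences numbered 1 with a common median, an offset of 100, no filter, the 3′ to 5′ covariate or only both groups fitted, where Zbp1 was lost; with quantile normalization and with only the high 18S arrays Zbp1 was lost as well while Bst2 was called. They numbered 1 to 3 on leaving out arrays (-0.13 to 0.22). In recurrences against normal lung, Rsad2 was called in 28 of 28 refits that left out a tumour. The single normal array was in every refit, so these refits do not test it.

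With a common median, recurrence 1 was highest for 9 members, the TI-K sets gave 8 members called lower (1 to 6 on leaving out arrays), and the TI-KM sets gave 14 calls; quantile normalization gave 2, and leaving out arrays 5 to 9. The shares of all genes at these settings are not given here. The causes of these changes were not tested. Set as a log2 difference, 321 values for single members kept their side of the threshold and their direction, 13 reversed, 10 were newly called and 9 lost a call.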
